A study of Homo sapiens with 15 samples.

Results

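Integrins are the surface receptors by which cells hold on to extracellular matrix, and laminins, nidogens, perlecan, agrin, fibronectin and vitronectin are matrix proteins that they bind or that organise the sheet called the basement membrane. The 38 genes described here were chosen by symbol from the 23346 symbols of a gene count table: integrin alpha subunits named by a number or by V, integrin beta subunits 1 to 8, laminin alpha, beta and gamma chains, and FN1 (fibronectin), NID1 and NID2 (nidogens), HSPG2 (perlecan), AGRN (agrin) and VTN (vitronectin). They comprise 20 integrin subunits and 18 matrix genes, of which 12 encode laminin chains. Integrin alpha subunits with other letter names lie outside the rule.

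The data are 15 bulk RNA-seq libraries of H9, an established line of human embryonic stem cells, collected once a day from day 0 to day 4 of differentiation towards definitive endoderm, the precursor of gut, liver and pancreas. Day 0 cells were undifferentiated and had been kept in E8 medium. Cells of days 1 to 4 were in Advanced RPMI 1640 with activin A, a TGF-beta family ligand, joined during the first day only by CHIR99021, an inhibitor of the kinase GSK3 that turns on Wnt signalling. Each day has 3 libraries, labelled replicates 1, 2 and 4, and values below follow that order. All groups are of this single line and the labels name no genetic change in any of them. The sources used here give neither the surface the cells grew on nor whether replicates were separate cultures. The p-values then measure only the spread between these libraries. Day 0 differs from the later days in medium as well as in time, and these cannot be told apart. In bulk RNA, fewer cells of a type and less RNA per cell cannot be told apart either.

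An integrin is a pair of an alpha and a beta subunit, and the alpha subunit largely sets what it binds: ITGA5, ITGAV and ITGA8 recognise the arginine-glycine-aspartate motif of fibronectin, vitronectin and related proteins, ITGA3, ITGA6 and ITGA7 bind laminins, and ITGA1, ITGA2, ITGA10 and ITGA11 bind collagens. A laminin is a trimer of an alpha, a beta and a gamma chain that assembles into a network, which nidogens, perlecan and agrin tie to the collagen IV network and to the cell. Human pluripotent stem cells are commonly grown on laminin or vitronectin coats and carry ITGA6 with ITGB1 as a main laminin receptor, whereas fibronectin is laid down where cells leave the epiblast in the gastrulating embryo.

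ITGA5 and ITGA6 changed in opposite directions within the first day, as described below, and their promoters are shown because these receptor genes carry the main contrast in the data. The sequences are RefSeq's on GRCh38.p14, 5′ to 3′ on the gene's strand, from 250 bases before to 50 bases after the annotated start, with capitals marking matches to any of 6 motifs searched on both strands. The ITGA5 window is chr12:54419217-54419516 on the minus strand, and the ITGA6 window, the upstream one of 2 listed starts, is chr2:172427086-172427385 on the plus strand.
ITGA5: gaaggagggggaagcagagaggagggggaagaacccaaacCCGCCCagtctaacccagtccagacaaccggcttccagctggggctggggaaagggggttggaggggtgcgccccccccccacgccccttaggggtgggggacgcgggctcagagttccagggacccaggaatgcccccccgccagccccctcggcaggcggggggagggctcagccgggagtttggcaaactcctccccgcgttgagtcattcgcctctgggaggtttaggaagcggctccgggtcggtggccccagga
ITGA6: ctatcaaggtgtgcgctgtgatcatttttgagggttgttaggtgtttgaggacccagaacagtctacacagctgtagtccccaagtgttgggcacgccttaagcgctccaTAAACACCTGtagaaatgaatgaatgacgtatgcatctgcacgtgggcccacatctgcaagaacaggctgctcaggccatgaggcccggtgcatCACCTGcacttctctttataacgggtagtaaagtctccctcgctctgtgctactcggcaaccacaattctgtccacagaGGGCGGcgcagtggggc
The ITGA5 window held 1 match, to the GC box GGGCGG recognised by SP and KLF factors. The ITGA6 window held 4 matches, namely 1 GC box, 1 forkhead motif TGTTTA and 2 copies of the SNAI and ZEB motif CACCTG, of which 1 overlaps the forkhead match. Promoters were found for 28 of the 38 genes, giving 35 windows. The GC box was in 22 of these 35 windows (62.9%), against 45.0% of all 35116 promoters in the table. CACCTG was in 8 of 35 windows (22.9%), against 20.6% of all, and TGTTTA in 6 of 35 (17.1%), against 12.3% of all. The GATA motif AGATAA was in 3 of 35 (8.57%), against 10.3% of all. No window held the TCF and LEF motif ATCAAAG or the FOXH1 motif AATCCACA, which 2.62% and 0.817% of all promoters hold. These are matches of letters within a short window and are not evidence of binding or of its absence.

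Total counts ran between 54723184 and 145857940 per library, so that 3 counts, taken here as the detection floor, correspond to between 0.0206 and 0.0548 CPM (counts scaled to a common library size by TMM). Every deposited count was even, and in steps of 2 that floor is 6 counts, or 0.0411 to 0.110 CPM. The label of the differentiated cells was checked on marker lists: the summed level of 7 definitive endoderm markers was 1086 to 4811 CPM on day 4 and 28.2 to 35.4 CPM on day 0, and that of 6 pluripotency markers 292 to 499 CPM on day 4 and 1794 to 2160.0 CPM on day 0. Replicate 1 of days 3 and 4 stood apart, with 1257 and 1086 CPM of the endoderm markers, against 3315 to 5827 CPM in the other libraries of those days. Replicate 1 of day 0 also stood apart: ribosomal protein genes held a share of 7.39%, where replicates 2 and 4 had 2.15% and 4.76%, and its counts fell with transcript length by a slope of -0.24 on the log2 scale per doubling, the lowest slope of the 15 libraries. Values without these libraries stand beside the results they change. Counts also varied with GC content, by amounts that differed between libraries. Relative to each gene's mean over the libraries, the log2 slope per 10% of GC was -0.487, -0.473 and 0.303 on day 0. On day 4 it was -0.21, 0.388 and 0.471.

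Of 36 members with enough reads to test, 23 (63.9%) passed edgeR's joint test of the 5 days at an adjusted p under 0.05, against 37.3% of all 17401 genes tested. ITGB6 was not tested because it had 2 counts in all libraries together, and LAMB4 because it never exceeded 6 counts in a library. On day 4 against day 0, 16 members rose and 3 fell (52.8% called, against 34.2% of all genes). The members' median log2 fold change was 1.18, against -0.02 over all genes. Of the 17 matrix genes tested, 8 rose by day 4 and 9 were not called. Of the 19 integrin subunits tested, 8 rose, 3 fell and 8 were not called. Over all genes 18.0% were called higher and 16.2% lower. Between neighbouring days the called changes came on the first 2 days: 6 members rose and 3 fell on day 1 against day 0 (25.0% called, against 10.4% of all genes, with 5.49% higher and 4.88% lower), and 3 rose and 3 fell on day 2 against day 1 (16.7%, against 8.27% of all genes, with 4.93% higher and 3.34% lower). On day 3 against day 2 no member passed edgeR's test (0.948% of all genes did, 0.661% higher and 0.287% lower), and 6 had an unadjusted p under 0.05. DESeq2 called 1 member there, ITGA6, against 957 of all 20699 genes it tested. On day 4 against day 3 no member passed, nor did any other gene (0.0% of all genes), although 4 members had an unadjusted p under 0.05. DESeq2 called no member there, against 68 of all 20699 genes. The share of all genes with an unadjusted p under 0.05 was not counted, so these counts of 6 and 4 have no background beside them.

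**Figure D1:**
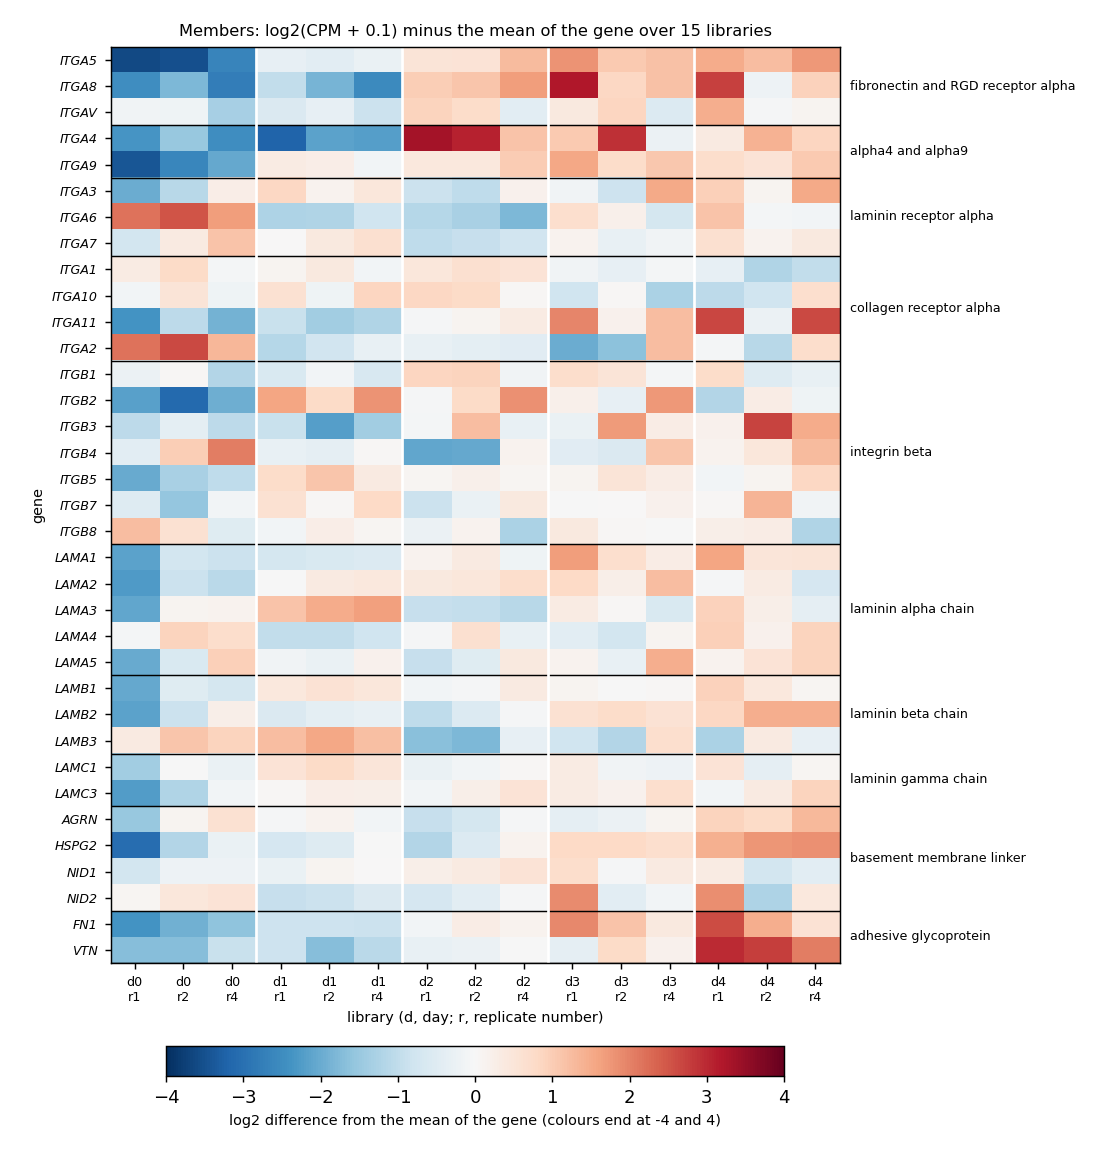
Heat map of members (rows, grouped by role; genes that were not tested or are not reported are left out) in 15 libraries (columns, ordered by day and replicate), coloured by log2(CPM + 0.1) minus the gene's mean over all libraries. ITGA5, ITGA9 and FN1 are lowest in the day 0 columns, ITGA6 and ITGA2 are highest there, and LAMA3 and LAMB3 are highest on day 1.

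ITGA5, the alpha subunit of the main fibronectin receptor, rose on each of the first 2 days with no called step after that. It measured 16.7, 17.9 and 32.8 CPM on day 0, 163, 154 and 171 on day 1, 293, 304 and 499 on day 2, 718, 429.7 and 461 on day 3 and 583, 486 and 686 on day 4. The 3 values of day 0 lie below all of day 1, and those of day 1 below all of day 2, while days 2, 3 and 4 overlap. The rise on day 1 against day 0 was large against the replicate spread (log2 fold change 2.86, SE 0.34, adjusted p = 5.43e-05). The rise on day 2 against day 1 was smaller (log2 fold change 1.17, SE 0.32, adjusted p = 0.03496), and its call was lost when any of 5 libraries was left out (each replicate of day 1, or replicate 2 or 4 of day 2; adjusted p up to 0.127). On day 4 against day 0 the log2 fold change was 4.70 (adjusted p = 5.59e-07), and 4.08 with offsets for length and GC content, still called.

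ITGA8, which pairs with ITGB1 and also recognises the arginine-glycine-aspartate motif, was near the floor at first and stayed low. Its levels were 0.0237, 0.0993 and 0 CPM on day 0, 0.2496, 0.0881 and 0.0181 on day 1, 1.25, 1.38 and 2.11 on day 2, 6.16, 1.11 and 1.46 on day 3 and 4.42, 0.499 and 1.201 on day 4. Day 0 rested on 2, 10 and 0 counts. All day 2 values lie above those of days 0 and 1, and replicate 1 of days 3 and 4 is the highest library of its day. The called differences were those of day 2 against day 1 (log2 fold change 3.76, SE 1.10, adjusted p = 0.0459), lost when any of 8 libraries was left out, and of day 4 against day 0 (log2 fold change 5.59, SE 1.21, adjusted p = 0.00265). Without replicate 2 of day 0, which held most of the day 0 counts, the day 4 value was 7.38. Without replicate 1 of days 3 and 4 it was 4.37 (adjusted p = 0.00653). ITGAV, the partner of several beta subunits in vitronectin and fibronectin receptors, ranged from 101 to 692 CPM and was called in no pairwise comparison. Its day 4 values (249 to 692 CPM) did not overlap those of day 0 (101 to 233 CPM), with an adjusted p of 0.0799. That difference was called with the replicate block (0.0104) and with offsets for transcript length and GC content (0.000686), while the adjusted p was 0.3896 without replicate 1 of days 3 and 4. The block treats same-numbered libraries as pairs, which their correlations bear out only between days 2 and 3 and between days 3 and 4.

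The alpha subunits ITGA4 and ITGA9, which bind fibronectin segments, VCAM1, tenascin and other ligands outside the classic motif, rose a day apart. ITGA9 had 3.67, 6.47 and 9.67 CPM on day 0, 50.7, 48.3 and 37.2 on day 1, 53.4, 53.5 and 81.9 on day 2, 118, 66.7 and 85.4 on day 3 and 64.6, 58.8 and 83.3 on day 4. Every library of days 1 to 4 lies above every library of day 0, and the rise came on day 1 against day 0 (log2 fold change 2.78, SE 0.37, adjusted p = 0.000124). ITGA4 followed on day 2, with 6.51, 11.7 and 5.97 CPM on day 0, 3.61, 7.64 and 7.24 on day 1, 338, 288 and 73.99 on day 2, 69.8, 258 and 28.7 on day 3 and 43.4, 88.4 and 61.8 on day 4. Its day 0 and day 1 values overlap, and all values of days 2, 3 and 4 lie above both. The rise on day 2 against day 1 was the largest of the 6 called in that comparison (log2 fold change 5.24, SE 0.78, adjusted p = 0.000645), and replicate 4 was far below the other day 2 libraries. By day 4 ITGA9 stood 3.38 higher (adjusted p = 1.09e-05) and ITGA4 3.00 higher (adjusted p = 0.004300) than on day 0 on the log2 scale.

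ITGA6, the laminin-binding alpha subunit typical of stem cells, fell within the first day and was still lower on day 4. Its levels were 478, 607 and 338 CPM on day 0, 45.4, 46.3 and 60.8 on day 1, 47.9, 42.9 and 30.8 on day 2, 171, 122 and 65.6 on day 3 and 235, 101 and 99.8 on day 4. No library of days 1 to 4 reaches the lowest day 0 library, and days 1 and 2 overlap. The fall on day 1 against day 0 was called (log2 fold change -3.22, SE 0.43, adjusted p = 0.000128), as was the lower level on day 4 against day 0 (log2 fold change -1.71, SE 0.40, adjusted p = 0.00446). All 3 day 3 values lie above all day 2 values (log2 fold change 1.56), with adjusted p = 0.0755. With the replicate number as a block, fitted over all 15 libraries, that difference was called (adjusted p = 0.0237). Correlations between same-numbered libraries bear out this pairing for days 2 and 3, but not for all days in that fit. The difference was likewise called by DESeq2 (adjusted p = 0.00582) and with length and GC offsets (0.00297), while the adjusted p was 0.155 without replicate 1 of days 3 and 4. The other laminin-binding subunits were called in no pairwise comparison in the main edgeR analysis, without a block or offsets: ITGA3 spanned 6.65 to 75.7 CPM and ITGA7 9.85 to 44.3 CPM. The ITGA3 difference of day 4 against day 0 (log2 fold change 1.61, adjusted p = 0.0561) was called with the block (adjusted p = 0.00334), with length and GC offsets (0.0449) and by DESeq2 (0.0234), and that of day 1 against day 0 with the block alone among these (0.0249). The ITGA7 difference of day 2 against day 1 (log2 fold change -1.27, adjusted p = 0.0506) was likewise called with the block (0.0266), with offsets (0.0157) and by DESeq2 (0.0132). ITGA7 passed the joint test (adjusted p = 0.0484), with 9.85 to 11.8 CPM on day 2, below every other library.

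**Figure D2:**
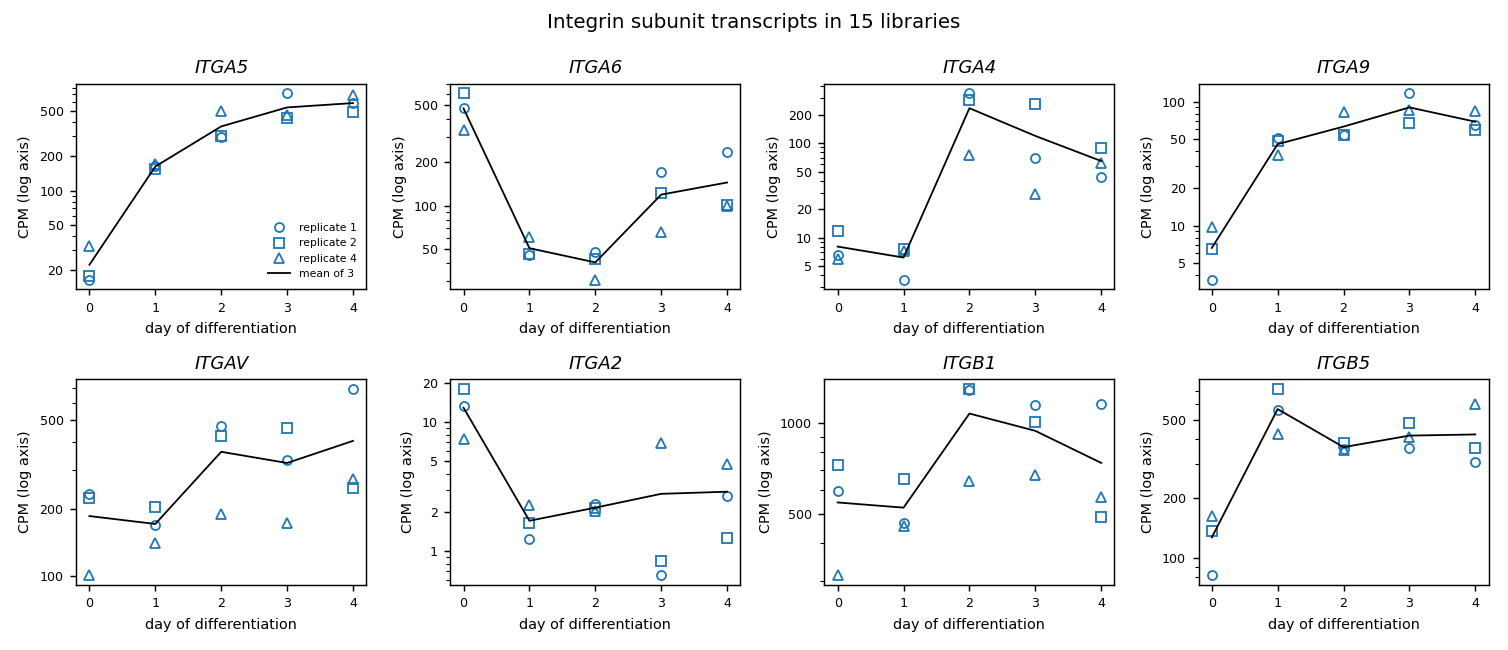
CPM on a log axis against day for 8 integrin subunits, with a marker for each of the 3 replicates and a line through the daily means. ITGA5 and ITGA9 step up between days 0 and 1, ITGA4 between days 1 and 2, while ITGA6 and ITGA2 step down between days 0 and 1.

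Among the collagen-binding alpha subunits, ITGA2 and ITGA1 were lower and ITGA11 higher on day 4 than on day 0. ITGA2, a receptor for fibrillar collagens and laminin, had 13.3, 18.2 and 7.36 CPM on day 0, 1.25, 1.64 and 2.28 on day 1, 2.32, 2.16 and 2.06 on day 2, 0.652, 0.841 and 6.87 on day 3 and 2.69, 1.26 and 4.73 on day 4. The day 0 values lie above all others, and day 3 spreads most, with replicate 4 far above replicates 1 and 2. It fell on day 1 against day 0 (log2 fold change -2.90, SE 0.76, adjusted p = 0.0226), a call lost when any of the replicates 1 and 2 of day 0 or any day 1 library was left out. The lower level on day 4 against day 0 (log2 fold change -2.16, SE 0.74, adjusted p = 0.0338) lost its call when any of 5 libraries was left out and in a fit with offsets for length and GC content (adjusted p = 0.0769). ITGA1, which prefers basement membrane collagen IV, had 19.3, 26.5 and 14.6 CPM on day 0, 16.6, 20.4 and 14.4 on day 1, 20.95, 24.2 and 22.7 on day 2, 13.97, 12.4 and 14.6 on day 3 and 12.4, 6.63 and 7.74 on day 4. Its day 4 values lie below all values of day 0, with log2 fold change -1.17 (adjusted p = 0.00991), and leaving out replicate 2 of day 4 gave adjusted p = 0.0571. ITGA11, a receptor for fibrillar collagen I, had 0.0237, 0.218 and 0.0761 CPM on day 0, 0.2496, 0.147 and 0.181 on day 1, 0.534, 0.602 and 0.712 on day 2, 2.43, 0.631 and 1.43 on day 3 and 4.04, 0.459 and 3.92 on day 4. All day 4 values lie above all day 0 values, and the log2 fold change was 4.69 (adjusted p = 0.00101), at a level that stayed under 5 CPM. Day 0 rested on 2, 22 and 8 counts, and without replicate 2 of day 0 the log2 fold change was 5.77 (still called). ITGA10 ranged from 0.0728 to 0.652 CPM and was called in no comparison.

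Of the beta subunits, ITGB5 and ITGB2 rose on the first day while ITGB1, the partner of most of the alpha subunits named above, was called in no comparison by edgeR without a block or offsets. ITGB1 had 597, 727 and 313 CPM on day 0, 465, 653 and 455 on day 1, 1285, 1302 and 644 on day 2, 1146, 1011 and 673 on day 3 and 1159, 489 and 567 on day 4, with replicate 4 the lowest library on days 0 to 3. Its log2 fold change on day 2 against day 1 was 1.04 (adjusted p = 0.129), and that difference was called with the replicate block (adjusted p = 0.0429) and with length and GC offsets (0.0143). Its log2 fold change on day 4 against day 0 was 0.44 (adjusted p = 0.418), against 0.71 with length and GC offsets (adjusted p = 0.00914) and 0.01 without replicate 1 of days 3 and 4 (adjusted p = 0.993). ITGB5, which joins ITGAV in a vitronectin receptor, had 81.8, 136 and 163 CPM on day 0, 556, 716 and 422 on day 1, 353, 383 and 352 on day 2, 359.7, 478 and 407 on day 3 and 306, 359 and 596 on day 4. Every library of days 1 to 4 lies above every library of day 0, and the rise on day 1 against day 0 was called (log2 fold change 2.15, SE 0.33, adjusted p = 0.000439), as was the level on day 4 against day 0 (log2 fold change 1.73, adjusted p = 0.000916).

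ITGB2, the beta subunit of leukocyte integrins, was low at all times, with 0.166, 0.0397 and 0.209 CPM on day 0, 3.44, 1.94 and 4.07 on day 1, 1.05, 1.93 and 4.14 on day 2, 1.26, 0.841 and 3.86 on day 3 and 0.432, 1.36 and 0.954 on day 4. Its day 1 values do not overlap those of day 0 (log2 fold change 4.50, SE 0.81, adjusted p = 0.00169). Day 0 rested on 14, 4 and 22 counts, so the size of that change depends on few counts. The log2 fold change of day 4 against day 0 was 2.71 (adjusted p = 0.0124), and leaving out replicate 2 of day 0, with 4 counts, gave adjusted p = 0.0513. ITGB3, the other main beta partner of ITGAV, had 0.189, 0.357 and 0.1903 CPM on day 0, 0.222, 0.0294 and 0.127 on day 1, 0.4603, 1.31 and 0.384 on day 2, 0.394, 1.83 and 0.631 on day 3 and 0.569, 3.81 and 1.55 on day 4. The day 4 values lie above all day 0 values, with replicate 2 the highest library, and the log2 fold change was 3.00 (adjusted p = 0.0143). Leaving out that library gave adjusted p = 0.0861, and leaving out replicate 1 of day 0 gave 0.0536. The remaining beta subunits were called in no comparison: ITGB8, an ITGAV partner that activates latent TGF-beta, ranged from 2.49 to 14.5 CPM, ITGB4, the hemidesmosome partner of ITGA6, from 0.0737 to 2.95 CPM, and ITGB7, a leukocyte subunit, from 0.0993 to 1.38 CPM.

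LAMA1, the alpha chain of the main early embryonic laminin, rose over the course and had the highest level among the alpha chains. It measured 79.04, 210.2 and 193 CPM on day 0, 215, 229.7 and 239 on day 1, 389, 452 and 307 on day 2, 1123, 552 and 432 on day 3 and 1044, 488 and 504 on day 4. All values of days 2 to 4 lie above all values of day 0, and replicate 1 of days 3 and 4 is far above the other libraries of those days. The difference of day 4 against day 0 was called (log2 fold change 2.08, SE 0.43, adjusted p = 0.00195). Without replicate 1 of days 3 and 4 the log2 fold change was 1.68 (adjusted p = 0.00305). LAMA5, the broadly expressed alpha chain found in stem cell and epithelial laminins, ranged from 21.4 to 235 CPM and was called in no comparison.

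LAMA2, best known from muscle basement membrane, had 2.67, 7.17 and 6.18 CPM on day 0, 13.01, 17.04 and 17.7 on day 1, 17.4, 18.05 and 21.8 on day 2, 23.2, 15.5 and 31.5 on day 3 and 12.9, 16.6 and 8.23 on day 4. Its day 1 values lie above all day 0 values (log2 fold change 1.57, SE 0.40, adjusted p = 0.0172), and so do its day 4 values (log2 fold change 1.24, SE 0.39, adjusted p = 0.0235). The first call was lost without replicate 1 of day 0 (adjusted p = 0.0639) or without replicate 2 or 4 of day 1, and the second without replicate 1 of day 0 or replicate 2 of day 4 (up to 0.0984). LAMA4, a chain of vascular and mesenchymal laminins, had 0.805, 1.67 and 1.45 CPM on day 0, 0.388, 0.382 and 0.453 on day 1, 0.829, 1.38 and 0.685 on day 2, 0.611, 0.481 and 0.922 on day 3 and 1.77, 0.978 and 1.66 on day 4. Its day 1 values lie below all day 0 values (log2 fold change -1.68, SE 0.50, adjusted p = 0.0417), a call lost when any of 10 of the 15 libraries was left out in turn.

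LAMA3 and LAMB3, an alpha and a beta chain of epithelial laminins, were called lower on day 2 against day 1. LAMA3 had 0.189, 1.23 and 1.24 CPM on day 0, 2.61, 3.35 and 3.71 on day 1, 0.552, 0.527 and 0.466 on day 2, 1.43, 1.17 and 0.704 on day 3 and 2.22, 1.36 and 0.848 on day 4. LAMB3 had 0.4496, 0.834 and 0.704 CPM on day 0, 0.915, 1.17 and 0.887 on day 1, 0.0368, 0.0251 and 0.247 on day 2, 0.149, 0.0901 and 0.583 on day 3 and 0.0785, 0.459 and 0.247 on day 4. For both genes, all day 2 values lie below all day 1 values. The log2 fold change was -2.64 for LAMA3 (adjusted p = 0.0145) and -3.28 for LAMB3 (adjusted p = 0.04405). LAMB3 rested on 4, 2 and 18 counts on day 2, with replicates 1 and 2 below the floor of 6 counts. The size of its fall therefore depends on counts near the floor, and leaving out single libraries gave log2 fold changes from -4.92 to -2.79. The LAMA3 difference of day 1 against day 0 (log2 fold change 1.86, adjusted p = 0.0593) was called with the block (0.0466), with length and GC offsets (0.0214) and by DESeq2 (0.009402). Single libraries decided the calls of day 2 against day 1: LAMA3 lost its call without replicate 4 of day 1 or replicate 1 or 2 of day 2 (adjusted p up to 0.067) and LAMB3 without any of 10 libraries (up to 0.188). Per kilobase of transcript their levels were 0.302 ± 0.0528 CPM for LAMA3 and 0.231 ± 0.0368 for LAMB3 on day 1 (SD, n = 3 each).

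LAMB1, the beta chain that pairs with LAMA1 and LAMC1, rose on the first day and stayed above its day 0 level. Its levels were 85.4, 253 and 219 CPM on day 0, 481, 534 and 489.6 on day 1, 333, 344 and 459 on day 2, 384, 356 and 370.4 on day 3 and 677, 481 and 374 on day 4. Every library of days 1 to 4 lies above every library of day 0, of which replicate 1 is the lowest. The rise on day 1 against day 0 (log2 fold change 1.43, SE 0.35, adjusted p = 0.0135) kept its call without that library (adjusted p at most 0.0456 over all 15 libraries left out in turn). Its log2 fold change on day 4 against day 0 was 1.46 (adjusted p = 0.00462). LAMB2, the beta chain of mature basement membranes at synapses and in the kidney, had 17.7, 42.8 and 92.02 CPM on day 0, 52.4, 58.6 and 63.2 on day 1, 38.5, 52.7 and 74.3 on day 2, 118, 129 and 115 on day 3 and 139, 210.4 and 210.2 on day 4. Its day 4 values lie above all day 0 values (log2 fold change 1.88, SE 0.44, adjusted p = 0.00446), while day 1 and day 0 overlap. Without replicate 4 of day 0 the log2 fold change was 2.68, and with length and GC offsets it was 1.29, called in both. With these offsets the difference of day 3 against day 2 was called as well (adjusted p = 0.0459).

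LAMC1, the gamma chain shared by most laminins, had 160.2, 416 and 343 CPM on day 0, 612, 706 and 578 on day 1, 344, 384 and 431 on day 2, 524, 375 and 358 on day 3 and 604, 321 and 436 on day 4 and was called in no comparison by edgeR without a block or offsets. Its log2 fold change on day 1 against day 0 was 1.05 (adjusted p = 0.0575), and that difference was called with the replicate block (0.0422), with offsets for length and GC content (0.00719) and by DESeq2 (0.0283). On day 2 against day 1 it was -0.71 (adjusted p = 0.219), called with offsets (0.0282). Its day 1 values lie above all day 0 values, of which replicate 1 is again the lowest, and all day 2 values lie below all day 1 values. LAMC3, a gamma chain of a few tissues, ranged from 4.95 to 44.5 CPM. It was called higher on day 4 against day 0 (log2 fold change 1.37, SE 0.43, adjusted p = 0.0234) although 21.95 to 44.5 CPM on day 4 overlapped 4.95 to 22.1 CPM on day 0, and the log2 fold change was 0.60 with offsets for length and GC content. Without replicate 4 of day 0 it was 2.14. The LAMC3 difference of day 1 against day 0 (log2 fold change 1.12, adjusted p = 0.118) was called with the replicate block (0.0121) and with offsets (0.0116). The call of day 4 against day 0 was lost without replicate 1 or 2 of day 0 or replicate 4 of day 4 (adjusted p up to 0.105).

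HSPG2, which encodes the heparan sulfate proteoglycan perlecan, was higher on day 4 than on day 0, with its highest values on the last 2 days. It had 15.4, 56.3 and 106 CPM on day 0, 79.8, 88.6 and 128 on day 1, 56.8, 87.8 and 142 on day 2, 223, 221 and 205 on day 3 and 339, 434 and 450.1 on day 4. All values of days 3 and 4 lie above all earlier values, and all day 4 values above all day 3 values. The difference of day 4 against day 0 was called (log2 fold change 2.78, SE 0.52, adjusted p = 0.000895), and no single step between neighbouring days was. Its lowest library on day 0 was replicate 1 and its highest replicate 4. Without replicate 4 of day 0 the log2 fold change was 3.56 and without replicate 1 of day 0 it was 2.35, called in both. With offsets for length and GC content the log2 fold change was 1.97 (adjusted p = 2.54e-05). AGRN, which encodes agrin, had 77.5, 238 and 335 CPM on day 0, 214, 243 and 205 on day 1, 115, 135 and 216 on day 2, 170.0, 188 and 239 on day 3 and 407, 371 and 546 on day 4. Its day 4 values lie above all other values, and AGRN passed the joint test (adjusted p = 0.0422) and no pairwise one (day 4 against day 0: log2 fold change 1.02, adjusted p = 0.0615). The replicate block (1.14, adjusted p = 0.0119), whose pairing is not borne out for days 0 and 4, and DESeq2 (1.06, adjusted p = 0.0416) called that difference. With those offsets it was 0.12 (adjusted p = 0.7297).

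The nidogens, which bridge laminin and collagen IV, were called in no comparison. NID1 ranged from 59.3 to 161 CPM and NID2 from 3.85 to 34.3 CPM. NID2 on day 1 (4.798 to 6.101 CPM) did not overlap day 0 (9.66 to 13.5 CPM), with adjusted p = 0.2899. Replicate 1 of days 3 and 4, at 34.3 and 33.5 CPM, held the highest NID2 values of all libraries.

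FN1, which encodes fibronectin, rose over the course to the highest CPM of any member. It measured 123, 172 and 212 CPM on day 0, 370.4, 365 and 361 on day 1, 599.9, 801 and 718 on day 2, 2443, 1441 and 854 on day 3 and 3990.1, 1793 and 971 on day 4. The days 0, 1 and 2 follow each other without overlap, all day 3 values lie above all day 2 values, and days 3 and 4 overlap. On day 4 against day 0 the log2 fold change was 3.73 (SE 0.49, adjusted p = 4.82e-05), whereas none of the single steps was called (the largest, on day 3 against day 2, was 1.16 with adjusted p = 0.236). Without replicate 1 of days 3 and 4 the step of day 1 against day 0 was called (log2 fold change 1.09, adjusted p = 0.0298). The day 4 libraries differed widely among themselves, with replicate 1 the highest. Without replicate 1 of days 3 and 4 the log2 fold change of day 4 against day 0 was 3.08 (adjusted p = 1.50e-05). VTN, which encodes the liver-made plasma and matrix protein vitronectin, was barely detected, with 0, 0 and 0.0761 CPM on day 0, 0.0832, 0 and 0.0543 on day 1, 0.166, 0.176 and 0.219 on day 2, 0.149, 0.451 and 0.267 on day 3 and 2.47, 2.08 and 1.24 on day 4. It had 0, 0 and 8 counts in the day 0 libraries, so its fitted log2 fold change on day 4 against day 0 (6.12, adjusted p = 0.00113) depends on how low counts are handled. All 3 day 4 values lie above all earlier values.

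**Figure D3:**
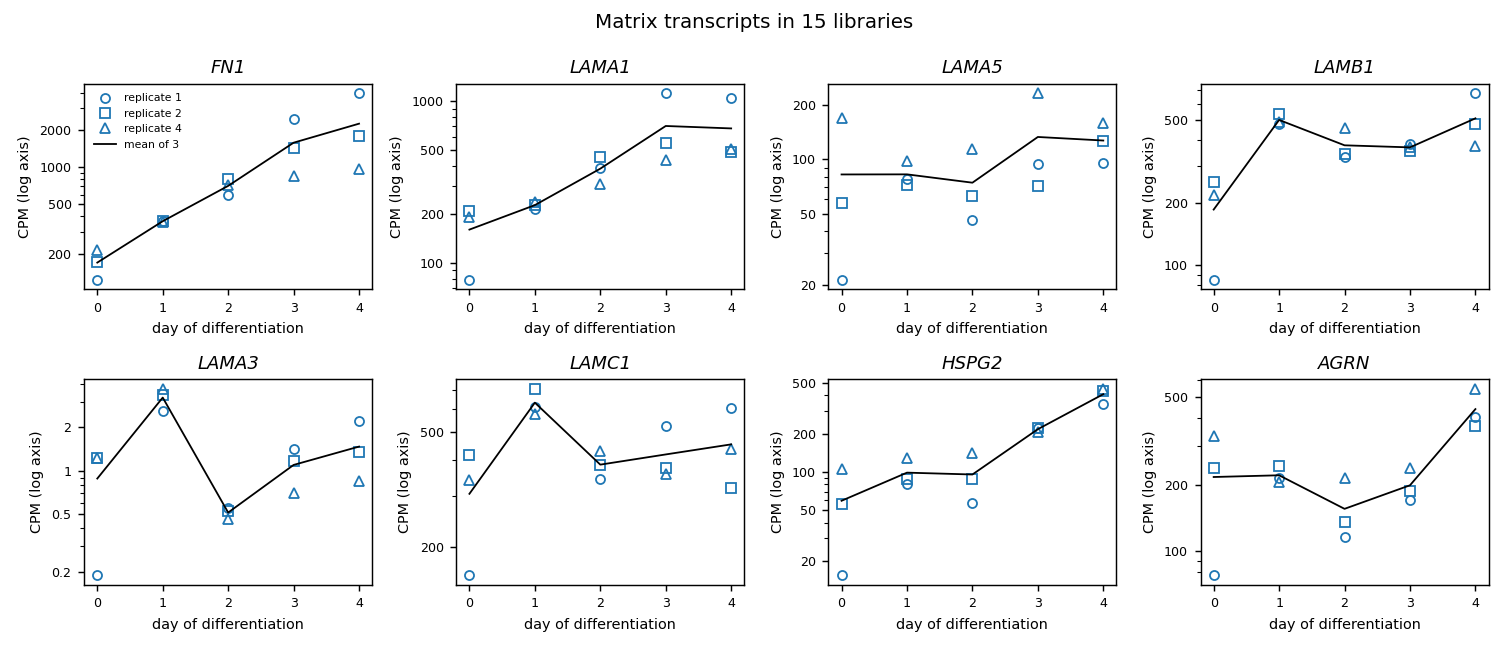
CPM on a log axis against day for 8 matrix genes, with a marker for each of the 3 replicates and a line through the daily means. FN1 and HSPG2 are highest on days 3 and 4, LAMB1 steps up on day 1, LAMA3 peaks on day 1, and replicate 1 of day 0 is the lowest day 0 library in all 8 panels.

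Receptors and ligands were matched on levels per kilobase of transcript, which allow different genes to be compared. On the fibronectin side, the daily means of ITGA5 and FN1 increased side by side: ITGA5 was at 5.05 ± 2.03, 36.6 ± 1.89, 82.2 ± 26.1, 121 ± 35.5 and 132 ± 22.5 CPM per kilobase on days 0 to 4, and FN1 at 18.99 ± 5.0, 41.1 ± 0.506, 79.3 ± 11.4, 177 ± 90.2 and 253 ± 175 (SD, n = 3 each). Both had their highest mean on day 4. The subunits ITGB1, ITGAV and ITGA4 did not rise on every day. ITGB1, the beta partner of ITGA5, was at 144 ± 56.0, 139 ± 29.4, 285 ± 99.2, 249 ± 64.5 and 195 ± 96.8 CPM per kilobase. ITGAV was at 26.5 ± 10.5, 24.4 ± 4.50, 51.3 ± 21.4, 45.8 ± 20.4 and 57.5 ± 35.5. ITGA4 was at 1.92 ± 0.749, 1.47 ± 0.530, 55.7 ± 33.5, 28.4 ± 29.2 and 15.4 ± 5.40. On the laminin side the receptor subunits also differed among themselves. ITGA6 was at 84.4 ± 23.9, 9.05 ± 1.54, 7.22 ± 1.56, 21.3 ± 9.43 and 25.8 ± 13.9 CPM per kilobase, highest on day 0, while LAMA1 was at 16.7 ± 7.39, 23.6 ± 1.23, 39.6 ± 7.51, 72.7 ± 38.3 and 70.2 ± 32.8, highest on day 3. ITGA3 was at 3.46 ± 2.704, 7.67 ± 1.78, 3.94 ± 1.904, 7.78 ± 6.65 and 10.6 ± 4.83 CPM per kilobase, with its highest mean on day 4. Means of LAMB1 and LAMC1 on day 1 were 87.02 ± 4.96 and 80.1 ± 8.42 CPM per kilobase, on the day when ITGA6 had lost most of its level. The vitronectin receptor genes ITGAV and ITGB5 stood at 57.5 ± 35.5 and 96.2 ± 35.4 CPM per kilobase on day 4, against 0.898 ± 0.294 for VTN itself.

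**Figure D4:**
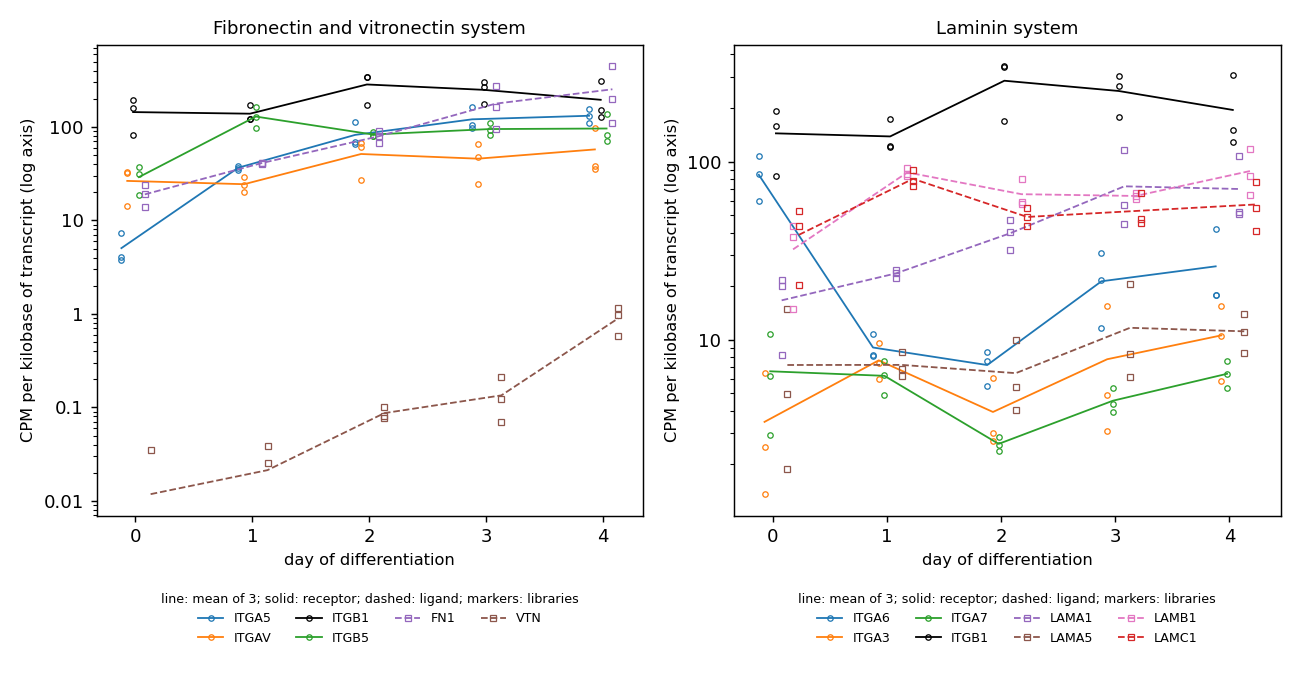
CPM per kilobase of transcript on log axes against day for receptor subunits (circles, solid lines) and ligand genes (squares, dashed lines) of the fibronectin and vitronectin system on the left and the laminin system on the right, with a marker per library and a line through the means of 3. ITGA5 and FN1 both have a higher mean on each later day on the left, on the right the mean of ITGA6 is lower on day 1 than on day 0 while those of LAMA1, LAMB1 and LAMC1 are higher, and VTN libraries at 0 are not drawn.

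As a share of the summed level per kilobase of the 12 alpha subunits, ITGA6 made up 63.1% ± 4.78 on day 0, 9.72% ± 1.71 on day 1, 3.35% ± 0.332 on day 2, 8.51% ± 2.15 on day 3 and 9.71% ± 3.41 on day 4 (SD, n = 3 each). ITGA5 made up 4.14% ± 2.56, 39.3% ± 2.43, 39.9% ± 18.2, 50.5% ± 11.8 and 51.8% ± 8.74 on the same days. ITGA4 reached 24.98% ± 13.4 on day 2, and ITGAV stayed between 18.4% and 26.1% by daily mean. Among the beta subunits ITGB1 made up 80.7% ± 10.9 on day 0 and 51.5% ± 3.09 on day 1, when ITGB5 had 47.6% ± 3.28. On days 2, 3 and 4 ITGB1 made up 75.7% ± 7.34, 71.3% ± 6.65 and 64.5% ± 14.9. The laminin makeup shifted less: by daily mean LAMA1 held between 70.7% and 82.8% of the alpha chains, LAMB1 between 71.8% and 89.3% of the beta chains, and LAMC1 between 86.8% and 89.2% of the gamma chains. LAMA5 held 15.1% ± 7.14 of the alpha chains on day 4 and 25.7% ± 13.5 on day 0. These shares are descriptions without a test, and shares within a class move together by construction.

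Ratios of counts between 4 pairs of members, taken within a library so that they do not depend on scaling, were compared over the 5 days by an exact permutation test of all assignments of libraries to days, with p-values adjusted over the 4 ratios. No offset for length or GC content was applied to them. Transcripts of ITGA5 and ITGA6 hold 58.7% and 42.9% GC, and those of LAMA1 and LAMA5 50.9% and 66.4%. These ratios can therefore carry GC differences between libraries, and that part was not tested. The log2 ratio of ITGA5 to ITGA6 was -4.84, -5.08 and -3.36 on day 0, 1.84, 1.73 and 1.49 on day 1, 2.61, 2.82 and 4.02 on day 2, 2.07, 1.82 and 2.81 on day 3 and 1.31, 2.27 and 2.78 on day 4. The ratio favoured ITGA6 in all 3 day 0 libraries and ITGA5 in all 12 later ones, and it differed between days (exact permutation p = 0.000906, adjusted 0.00181). The log2 ratio of FN1 to LAMB1 was 0.53, -0.56 and -0.05 on day 0, -0.38, -0.55 and -0.44 on day 1, 0.85, 1.22 and 0.64 on day 2, 2.67, 2.02 and 1.21 on day 3 and 2.56, 1.90 and 1.38 on day 4. It was below 0 in all day 1 libraries and above 0 in all libraries of days 2 to 4, and it differed between days (exact permutation p = 0.000534, adjusted 0.00181).

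The log2 ratio of NID1 to NID2 averaged 2.68, 4.17, 4.19, 3.30 and 2.81 on days 0 to 4, with an exact permutation p of 0.0511 (adjusted 0.0682). Days 3 and 4 spread widely, with SD 0.92 and 1.04, and replicate 1 was the lowest library of both days. Without replicate 1 of days 3 and 4 the adjusted p was 0.0122. The log2 ratio of LAMA1 to LAMA5 averaged 1.32, 1.47, 2.45, 2.47 and 2.35 and did not pass the test (exact permutation p = 0.430, adjusted 0.430).

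**Figure D5:**
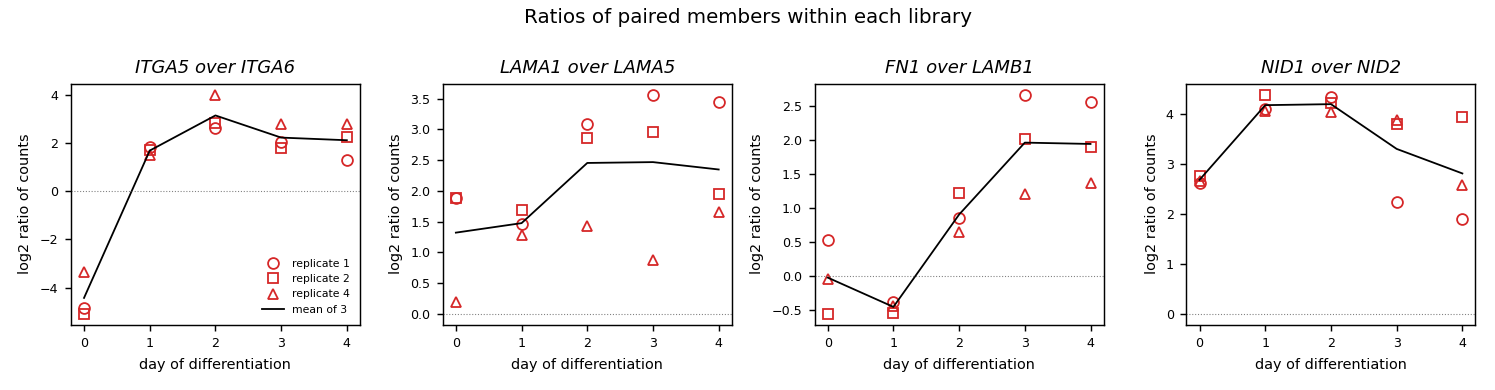
Log2 ratio of counts within a library against day for 4 pairs of members, with a marker for each of the 3 replicates, a line through the daily means and a dotted line at equal counts. ITGA5 over ITGA6 is above 0 in the libraries of days 1 to 4 and below 0 in those of day 0, and FN1 over LAMB1 is above 0 from day 2 on.

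The wider matrix machinery was read from 4 further gene lists. Of 23 basement membrane partners tested, 14 rose and 1 fell by day 4, against day 0 (65.2% called, against 34.2% of all genes). Their median log2 fold change was 2.14, against -0.02 over all genes. The largest were NTN1 (netrin 1, 6.81, adjusted p = 1.75e-05) and EGFLAM (pikachurin, a dystroglycan ligand, 6.63, adjusted p = 7.39e-08), and EGFL6 fell (-6.39, adjusted p = 0.00396). EGFLAM averaged 64.4 ± 5.95 CPM on day 4 and 0.6495 ± 0.0967 CPM on day 0, and had already risen on day 1 against day 0 (6.27, adjusted p = 2.00e-07). NTN4, a netrin that binds laminin, rose on day 2 against day 1, with 164 ± 34.1 CPM on day 2 and 2.39 ± 0.665 CPM on day 1 (log2 fold change 6.09, adjusted p = 5.40e-06). COL4A1, COL4A2 and NPNT, named here as ligand genes after their values had been seen, were all higher on day 4. COL4A1 averaged 1065 ± 655 CPM on day 4 and 124 ± 21.7 CPM on day 0, and COL4A2 432 ± 35.6 CPM on day 4 and 44.9 ± 29.6 CPM on day 0. NPNT, the nephronectin ligand of ITGA8, averaged 1.02 ± 0.581 CPM on day 4 and 0.201 ± 0.0115 CPM on day 0 (adjusted p = 0.0328).

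Of 23 genes of matrix assembly and turnover tested, 12 rose by day 4, against day 0 (52.2% called, against 34.2% of all genes, 18.0% higher and 16.2% lower), and 11 were not called. The median log2 fold change was 1.14. Those that rose included the proteases ADAMTS9 (5.44), MMP9 (4.98) and MMP14 (4.03 on the log2 scale, adjusted p = 2.37e-05). MMP14, a membrane-bound collagenase that also cleaves fibronectin and laminin, averaged 624 ± 165 CPM on day 4 and 38.3 ± 26.01 CPM on day 0. It was among 3 genes of the list that rose on day 1 against day 0 (13.0% called, near the 10.4% of all genes), with ADAMTS9 (2.84) and MMP2 (2.12). Of 14 non-integrin matrix receptors, 3 rose and 3 fell by day 4, against day 0 (42.9% called, against 34.2% of all genes), with a median log2 fold change of 0.38. The largest changes were those of the proteoglycan GPC3 (-2.73), the integrin-associated tetraspanin CD151 (2.42) and syndecan 1, SDC1 (-1.65). GPC3 averaged 34.3 ± 22.7 CPM on day 4 and 227 ± 108 CPM on day 0.

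Of 25 adhesion adaptors, the cytoplasmic proteins that couple integrins to actin, 8 rose and 1 fell by day 4, against day 0 (36.0% called, near the 34.2% of all genes). Their median log2 fold change was 0.24. The 1 gene of this list called on day 2 against day 1 (4.0% called, against 8.27% of all genes) was FERMT1, the epithelial kindlin that activates integrins by binding their beta tails. It averaged 4.59 ± 0.915 CPM on day 2 and 37.1 ± 0.706 CPM on day 1 (log2 fold change -3.01, adjusted p = 5.99e-05), and on day 4 against day 0 its log2 fold change was -4.19 (adjusted p = 8.61e-07). The kinase SRC (2.64, adjusted p = 0.00218) and the parvin PARVB (1.74, adjusted p = 0.0163) were higher on day 4 than on day 0.

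Markers of other cell types that make matrix were measured beside these genes. Of 6 fibroblast and stroma markers, 4 were higher on day 4 than on day 0 and 1, POSTN, was lower (83.3% called, against 34.2% of all genes). Their summed level was 451 to 568 CPM on day 4 and 132 to 210.2 CPM on day 0. It was 645 to 798 CPM on day 1, the day on which ITGA5, ITGA9, ITGB5 and LAMB1 rose. COL1A2 made up most of the gain of day 4 over day 0, with 285 ± 83.1 CPM on day 4 and 55.2 ± 9.81 CPM on day 0, while DCN stood at 0.455 ± 0.09398 CPM on day 4 and at 0 in all day 0 libraries. Of 7 markers of parietal and extraembryonic endoderm, cells that secrete a thick basement membrane, 4 were higher on day 4 than on day 0 and 3 were not called (57.1% called, against 34.2% of all genes), with summed levels of 1957 to 3676 CPM on day 4 and 719 to 888 CPM on day 0. The highest day 4 sum was that of replicate 1, while replicates 2 and 4 had 1957 and 2311 CPM. That list holds LAMB1 itself and COL4A1, and none of its markers was at 0 in all libraries. The summed level of 7 mesoderm and endothelium markers was 51.5 to 205 CPM on day 4 and 131 to 239 CPM on day 0. Most of that sum is KDR, with 116 ± 69.6 CPM on day 4 and 188 ± 59.2 CPM on day 0. None of these 7 passed edgeR's test on day 4 against day 0, 2 had an unadjusted p under 0.05 (MEOX1 and TBX6), and DESeq2 called TBX6 (adjusted p = 0.0415). Their median log2 fold change was 1.86. The part of such cells in the levels above was not tested.

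Counting could blur some members: by the GENCODE annotation of GRCh38, exons of 23 of the 38 genes overlap an exon of another gene, and for 7 of them, HSPG2, ITGA1, ITGA7, ITGB7, LAMA5, LAMB1 and LAMB3, that gene is also in the table. Whether the counting used strand is not stated, and reads of such pairs may be shared.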

How the data were processed

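Per the labels' protocols, RNA was purified from cultured H9 cells, polyA RNA was selected and the libraries keep strand. TopHat2 2.0.14 and build hg19 are named, per the submitters' processing notes; the sources used here name no counter, annotation or strand setting. The authors deposited raw counts per gene symbol, whole numbers without normalization, for 15 libraries; every count was even. Of 23398 entries, 44 identical repeats were dropped and 8 repeats summed, leaving 23346 symbols. Total counts per library ran from 54723184 to 145857940, and floors cover counting error only. No pair of libraries of a day agreed within sampling noise.

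Genes passing filterByExpr (17401) were fitted with edgeR 4.0.16 (R 4.3.3, limma 3.58.1), TMM scaling and quasi-likelihood F-tests with day as factor over all 15 libraries; p-values were adjusted by Benjamini-Hochberg over all genes at 0.05. The script was tested on simulated data with known changes on day 1 against day 0 in 100 genes per size of change. There edgeR called 2% of 2-fold and 60% of 4-fold changes, with 4 unchanged genes called. DESeq2 called 10% and 79%, with 28 unchanged genes called. A member that was not called is therefore not shown to be unchanged. CPM use TMM-scaled library sizes. Levels per kilobase use the longest protein-coding GENCODE transcript on GRCh38, not the authors' build. Ratios used log2(count + 0.5) and an exact permutation test of the F statistic, which is two-sided by construction. DESeq2 1.42.0, other scalings and filters, length and GC offsets, a replicate block and libraries left out were alternatives. Same-numbered libraries of days 2 and 3 correlated in their deviations (0.272, 0.385 and 0.619), as did those of days 3 and 4 (0.625, 0.221 and 0.524), so numbers were taken to pair these days. Other pairs of days did not meet this, and block results for them stand as alternatives only. The block was fitted over all 15 libraries at once, so it also ties days that did not meet this.

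Every library is given for ITGA5, LAMB1 and HSPG2, for the 20 members of largest change among those called in a pairwise comparison, and for the member of highest level in each role; other genes are named where called, up to 3 per list and comparison. Values of 1 member are not reported here; it stays in the counts over members. Members and lists were chosen with earlier results of these data known.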

Additional observations from a re-analysis of the deposited data

How the results depend on the processing

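The direction of all 34 gene calls held under every alternative, and 20 of the 34 also stayed called in every one. Without each library in turn, calls ranged from 19 to 25 in the joint test (23 in the main analysis), from 6 to 10 on day 1 against day 0 (9), from 1 to 6 on day 2 against day 1 (6), from 0 to 1 on day 3 against day 2 (0), were 0 on day 4 against day 3, and ranged from 15 to 22 on day 4 against day 0 (19). On day 2 against day 1, 2 or fewer calls were left without any day 1 library or without replicate 1 or 2 of day 2. Over all genes, calls there fell as well, from 1439 to between 612 and 858 without those libraries. Fitting only the 2 days compared gave 11 calls there, with 2814 of 16020 genes called over all genes. On day 3 against day 2 the replicate block and DESeq2 gave 1 call each, and length and GC offsets gave 2. Over all genes these fits called 590 of 17401, 957 of 20699 and 899 of 15296 there. Offsets together with the replicate block gave 14 on day 1 against day 0, 11 on day 2 against day 1 and 2 on day 3 against day 2. Over all genes that fit called 3321, 3237 and 1353 of 15296. The length and GC offsets moved the median of all genes by about 0.1 on the log2 scale on day 4 against day 0. The cause of these differences was not tested. Counts divided by 2, tried after every count was seen to be even, kept all 34 calls. For NID1 to NID2 (day 4 minus day 0, 0.13), the adjusted p passed the threshold with labels permuted within the replicate block (0.0367, difference 0.13), without replicate 1 of days 3 and 4 (difference 0.58), and without replicate 1 of day 3 (0.0171) or replicate 2 of day 4 (0.00911); leaving out single libraries gave differences from -0.44 to 0.58. Depth limits ITGB6, LAMB4, VTN, ITGA8, ITGA11 and ITGB2, which sat near the floor on day 0, and LAMB3, which did so on day 2.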

Other observations

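The 38 genes together took 0.191% of the counts in the lowest library, replicate 1 of day 0, and 1.11% in the highest, replicate 1 of day 4. Of the 36 tested members, 14 had their highest daily mean on day 4, 5 on day 0, 6 on day 1, 5 on day 2 and 6 on day 3.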
